A study of Mus musculus with 3 samples.

Results

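The genes described here encode the proteasome, the protease complex that degrades ubiquitin-tagged proteins in the cytosol and nucleus. They were taken as all genes on the array whose symbol starts with Psma, Psmb, Psmc, Psmd, Psme, Psmf, or Psmg and a digit, with the inducible catalytic subunits Psmb8 and Psmb9 left out by the rule. The rule uses names only and no measured value. It gave 48 genes of the 19752 that could be named on the array, covered by 59 probes. Of the protein-coding genes of the reference that match the rule, only Psme2b had no named probe on the array, and 6 pseudogenes had none either. Psmc3ip, a factor of meiotic recombination, and Psme3ip1, a protein that binds an activator, matched the rule by symbol but are not subunits, and they are kept apart below.

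The study followed macrophages of mouse backskin through the second telogen, the resting phase of the hair cycle. CD11b+Gr1-F4/80+ cells were sorted by FACS from CD1 mice at postnatal day 42 (P42, early telogen), 55 (P55, mid telogen), and 69 (P69, late telogen), all without treatment. RNA of 3 littermates was pooled at each stage, amplified with a kit for whole transcriptomes, and measured with the dye Cy3 on 1 Agilent array of oligonucleotide probes per stage, with all 3 arrays on 1 slide. The text of the study gives a slightly later day for early telogen than the sample labels, which are followed here. With 1 array per stage there is no replicate check, no difference between stages could be tested, and no p-values are given.

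Values are log2 signals relative to the 75th percentile of the same array, so a difference of 1 is a 2-fold difference. Different probes bind with different strength, and only differences of the same probe between arrays are compared. The only error that could be measured is that of repeated spots of a probe on the same array. It gave a single difference an SD (log2) of 0.174 for P69 against P42, 0.166 for P55 against P42, and 0.161 for P69 against P55. This error leaves out the variation between mice, sorts, and amplifications. A probe that was well above background on only 1 of 2 arrays is given with a bound ("at least").

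The deposited files disagree on which of the later arrays is P55 and which is P69. In the authors' table of processed values, the P55 column matched the scanner file of the P69 sample (99.9% of probes within 0.05 log2), and the P69 column matched that of the P55 sample (99.8%). Here "P55 array" and "P69 array" follow the sample to which each scanner file is assigned, and both are given throughout. If the table is right, the names of the later arrays have to be exchanged and the sign of each P69 minus P55 difference turns. What is higher or lower on both later arrays than at P42 does not depend on this.

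All 3 arrays held the markers of the sorted cells, with Itgam (CD11b) at 8.95, 8.73, and 7.85 and Adgre1 (F4/80) at 4.83, 5.51, and 5.15 at P42, P55, and P69. Of all genes, 22.2% (P69) and 29.1% (P55) were at least 2-fold higher than at P42, and 20.7% and 16.9% were lower. Of 15 macrophage markers with a probe, none was 2-fold higher on a later array. At P69, 3 (20.0%) were 2-fold lower, and at P55 2 (13.3%), which is near the shares of all genes. All 15 keratinocyte markers were detected on each array. Their summed level, on a linear scale in units of the 75th percentile, was 279 at P42, 408 at P55, and 275 at P69, and most of this sum at P42 came from Trp63. Without Trp63 it was 17.0, 145.1, and 112.2, respectively. Of the 15 markers, 11 (P69) and 12 (P55) were 2-fold higher than at P42. Krt5 had a level of 1.58 at P42, 5.55 at P55, and 4.91 at P69. Of the other cell types, 4 of 7 T cell markers and 3 of 6 Langerhans and dendritic cell markers were 2-fold higher on each later array. The other 3 Langerhans and dendritic cell markers were below 0 on each, with 1 of them (Cd209a) 2-fold lower at P69. Of the T cell markers, 2 were below 0 at P69 and 1 at P55, and 0 were 2-fold lower. The summed levels of the T cell list and of the Langerhans and dendritic cell list were 3.99 and 47.3 at P42, 11.8 and 163.9 at P55, and 7.82 and 99.3 at P69. Of 8 endothelial markers, 4 were 2-fold lower and 0 higher at P55, and 1 was lower and 1 higher at P69. Of the fibroblast markers, 3 of 9 were 2-fold lower and 1 higher at P55. At P69, 3 of 10 were lower and 2 higher. The median difference of the endothelial markers was -0.98 at P55 and -0.15 at P69, and that of the fibroblast markers -0.82 and 0.25, respectively. The part of these cell types in the differences of the proteasome genes was not tested. In a bulk sample, fewer cells of a type and less RNA per cell cannot be told apart.

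The core of the proteasome is the 20S particle, a barrel of stacked rings. The outer rings are built from alpha subunits (Psma), which gate the entry, and the inner rings from beta subunits (Psmb), which include the proteolytic sites. The 19S regulatory particle caps the barrel. Its ATPases (Psmc) unfold the substrate, and its non-ATPase subunits (Psmd) bind ubiquitin chains and remove them. Dedicated chaperones assemble both particles. Alternative activators (Psme) open the barrel without the 19S particle. In immune cells, interferon exchanges the catalytic beta subunits for inducible ones and raises the PA28 activator (Psme1 and Psme2), which changes the peptides available for MHC class I.

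Some proteasome promoters carry the antioxidant response element, through which Nrf1 and Nrf2 activate transcription, and some carry interferon-responsive elements. Most subunit genes had more signal at P55 and P69 than at P42, and whether such elements have a part in this was not tested. Promoter windows of 300 bases (250 before to 50 after the transcription start, RefSeq, GRCm38.p6) were at hand for 40 of the 48 genes. The core of the antioxidant response element (TGACNNNGC, either strand) was found in 6 of the 40 (15.0%), compared to 14.0% of all 27025 genes with a window, so this share was near that of genes in general. The genes were Psmb5, Psmb6, Psmc6, Psmd9, Psmd12, and Psme4. In Psme4, which had less signal on both later arrays than at P42, the match spans the start and is not shown. For the other 5, the stretches around the match upstream of the start are shown on the gene's strand, with the match in capitals. In Psmb5, Psmb6, and Psmd9 it reads as the motif is spelled, and in Psmc6 and Psmd12 as its reverse complement. They come from chr14:54618004-54618072 (Psmb5, minus strand), chr11:70525318-70525356 (Psmb6, plus), chr14:45329574-45329635 (Psmc6, plus), chr5:123228129-123228189 (Psmd9, plus), and chr11:107479278-107479319 (Psmd12, plus).
Psmb5: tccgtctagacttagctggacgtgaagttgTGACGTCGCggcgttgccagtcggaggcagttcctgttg
Psmb6: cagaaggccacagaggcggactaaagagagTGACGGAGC
Psmc6: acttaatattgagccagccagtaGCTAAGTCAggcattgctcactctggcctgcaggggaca
Psmd9: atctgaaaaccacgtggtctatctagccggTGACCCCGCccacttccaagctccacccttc
Psmd12: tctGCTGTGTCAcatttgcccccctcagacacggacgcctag

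The core of an interferon response element (the letters GAAA, any 2 bases, and GAAA again, either strand) was found in 5 of the 40 genes (12.5%; Psmb3, Psmd4, Psmd9, Psme1, and Psmg4), compared to 3.99% of all genes with a window. In Psmb3 (chr11:97703241-97703310, plus strand) and Psmd4 (chr3:95042655-95042724, minus strand) it lies upstream of the start and is shown in capitals as its reverse complement on the strand of the gene. In Psmd9 it also lies upstream, with its first base 159 before the start, and reads as the motif is spelled. The Psmd9 stretch is not shown. In Psme1 and Psmg4 it lies after the start. The CCAAT box (CCAAT, either strand) was found in 15 of the 40 (37.5%), compared to 41.1% of all genes. A match is a stretch of letters and does not show that a factor binds there.
Psmb3: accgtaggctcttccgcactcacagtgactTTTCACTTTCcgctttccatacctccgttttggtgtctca
Psmd4: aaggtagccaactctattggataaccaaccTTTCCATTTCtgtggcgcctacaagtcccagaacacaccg

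Proteasome genes had a higher signal at P55 and at P69 than at P42. All 48 were well above background at P42, 47 at P55, and 46 at P69. Their median difference from P42 was 0.81 on the P69 array (1.75-fold), where the median of all 16164 genes with a value was 0.15. On the P55 array it was 1.24 (2.36-fold), compared to 0.22 over 15843 genes. At P69, 19 proteasome genes (39.6%) were at least 2-fold higher than at P42, compared to 22.2% of all genes, and 3 (6.25%) were at least 2-fold lower, compared to 20.7%. At P55, 35 (72.9%) were at least 2-fold higher, compared to 29.1% of all genes, and 1 (2.08%) was lower, compared to 16.9%. By its reported probe, none reached the 10-fold change that the methods of the study use as a threshold, which 0.668% (higher) and 0.464% (lower) of all genes reached at P69 and 1.12% and 0.316% at P55. Both later arrays are compared to the same P42 array, and an error on that array enters both differences.

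Of the 48 genes, 41 had a difference above 0 on both later arrays, and 18 were at least 2-fold higher on both. The exceptions to a difference above 0 on both were Psma8, Psmb10, Psmb11, and the 4 activators Psme1, Psme2, Psme3, and Psme4. The share of all genes that passed on both arrays at once was not computed. On single arrays, 8849 of 16164 genes were above 0 at P69 and 8836 of 15843 at P55. At least 2-fold higher were 22.2% and 29.1% of all genes, respectively. The 31 subunits of the 20S and 19S particles other than Psma8, Psmb10, and Psmb11, a grouping made with the values known, were all higher on both later arrays, except that Psmd8 was not higher at P69 with the percentile over probes detected on all arrays or with quantile normalization, with or without normexp before it. Their median difference was 1.01 at P69 (quartiles 0.63 and 1.30) and 1.42 at P55 (1.04 and 1.79). Relative to the median of all genes, all 31 were higher on both arrays with the other scalings tried, except with quantile normalization (29 at P69 and 30 at P55), normexp followed by quantile normalization (30 at P69), and when only genes detected on both arrays were used (30 at P69). The plot of the differences by role shows each gene.

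**Figure D1:**
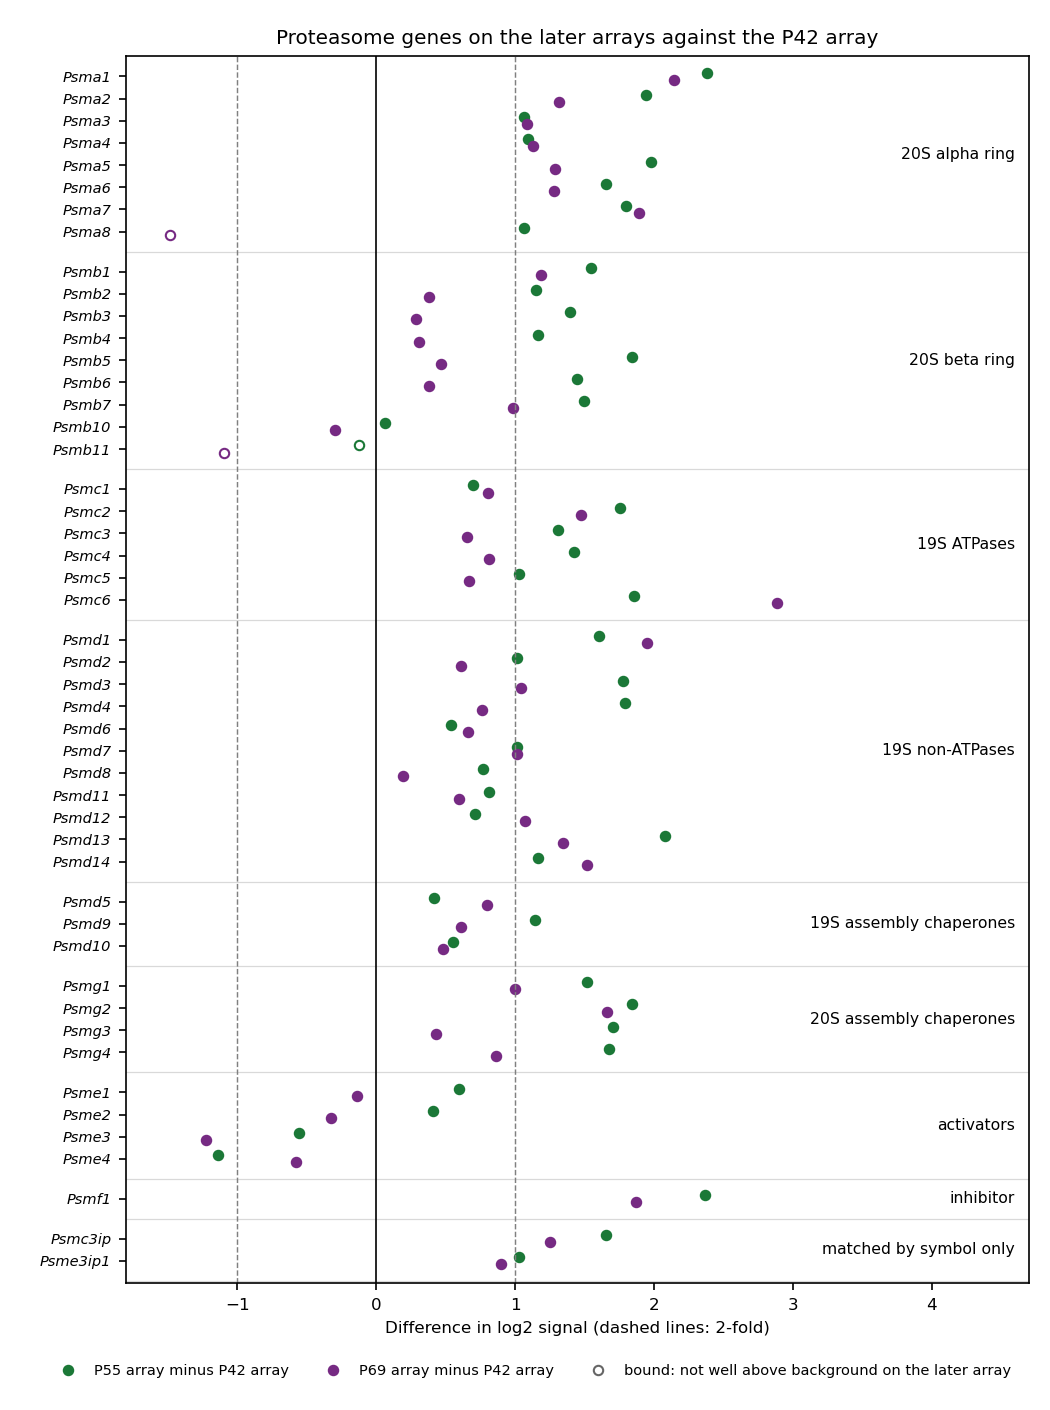
Difference in log2 signal of the 48 proteasome genes (rows, by role) between each later array and the P42 array; each point is the reported probe of a gene on 1 pair of arrays, dashed lines mark 2-fold, and open points are bounds. The 31 constitutive 20S and 19S subunits lie to the right of 0 on both arrays, whereas Psme3 and Psme4 lie to the left of 0 on both, and Psmb10, Psme1, and Psme2 to the left at P69 only.

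**Figure D2:**
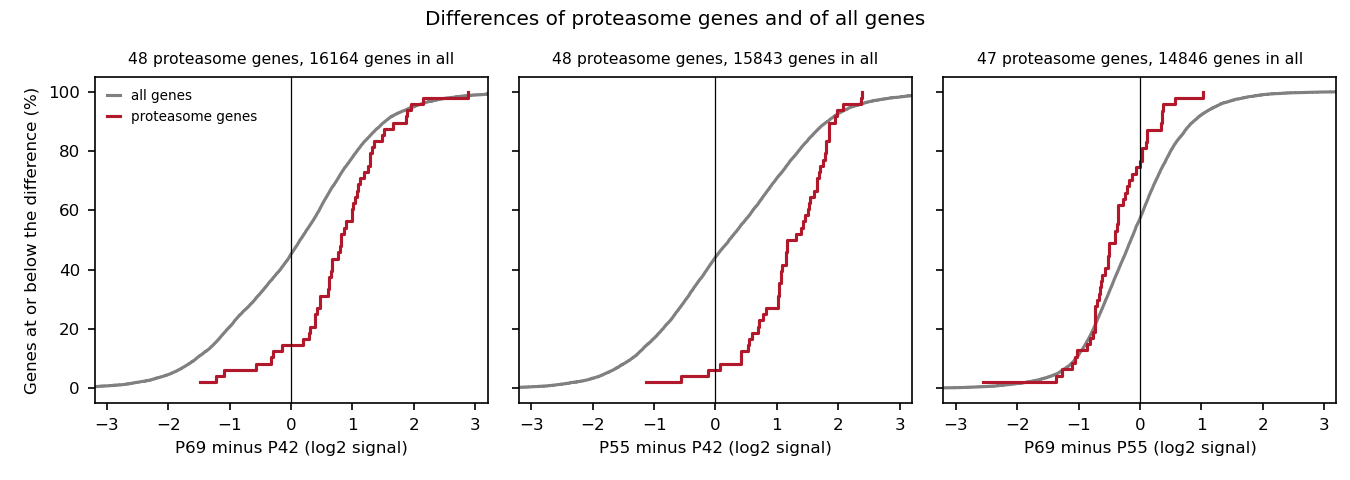
Share of genes (%) at or below a given difference in log2 signal, for the proteasome genes and for all genes with a value, in each of the 3 comparisons of arrays. The median of the proteasome genes lies at 0.81, 1.24, and -0.40, and that of all genes at 0.15, 0.22, and -0.15.

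The alpha ring had a median difference of 1.28 at P69 and 1.73 at P55. Its 7 constitutive subunits, Psma1 to Psma7, were at least 2-fold higher on both later arrays. Psma1 had a level of 0.96 at P42, 3.35 at P55, and 3.11 at P69. It was thus 5.21-fold higher at P55 and 4.41-fold higher at P69, the largest differences of the ring. Psma7 was at 1.01, 2.81, and 2.91, respectively, and Psma5 at 0.93, 2.91, and 2.21. Psma2 was at 2.57, 4.52, and 3.89, and Psma6 at 1.27, 2.93, and 2.55. In these genes the P42 array was low, and the later arrays lay closer to each other than to it. The smallest differences of the constitutive subunits were those of Psma3, with 2.83 at P42, 3.89 at P55, and 3.92 at P69, and of Psma4 with 2.34, 3.43, and 3.47, so that both were about equally high on the later arrays. Psma8, the alpha subunit of germ cells that replaces Psma7 in the testis, was dim on all arrays, with -3.40 at P42, -2.34 at P55, and -4.89 at P69, where it was not well above background. It was 2.10-fold higher at P55 and at least 2.80-fold lower at P69 than at P42.

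The beta ring had a lower median difference at P69 (0.38) than at P55 (1.40). Psmb5, Psmb6, and Psmb7 carry the chymotrypsin-like, caspase-like, and trypsin-like activities of the constitutive proteasome. Psmb5 had a level of 3.65 at P42, 5.49 at P55, and 4.12 at P69. It was 3.58-fold higher than at P42 on the P55 array and 1.38-fold higher on the P69 array. The other probe of Psmb5 had a difference of 1.04 at P55 and of 0.01 at P69. Psmb6 was at 4.05, 5.49, and 4.43, with a 2.73-fold and a 1.31-fold difference, respectively. Psmb7 was at 1.27, 2.77, and 2.26, with a 2.83-fold difference at P55 and a 1.98-fold difference at P69. All of them were highest at P55 and lowest at P42.

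The structural beta subunits had the same order. Psmb1 was at 2.50 at P42, 4.04 at P55, and 3.68 at P69, and it was the only beta subunit at least 2-fold higher on both later arrays. Psmb2 (4.12, 5.28, and 4.51), Psmb3 (4.10, 5.50, and 4.39), and Psmb4 (3.63, 4.80, and 3.94) were 2-fold higher only at P55, by 2.22-fold, 2.64-fold, and 2.24-fold. At P69 the differences of Psmb3 (0.29) and Psmb4 (0.31) were within 2 SD of the spot error. Psmb10, the inducible subunit that takes the place of Psmb7 in the immunoproteasome, was at 3.70 at P42, 3.77 at P55, and 3.40 at P69. Its differences from P42 of 0.07 and -0.30 were within 2 SD of the spot error. Psmb11, the catalytic subunit of the thymic cortex and the direct neighbor of Psmb5 on chromosome 14, was at -3.92 at P42 and not well above background on the later arrays. It was at least 2.13-fold lower at P69, and the bound at P55 (at least 1.09-fold) was within the error.

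**Figure D3:**
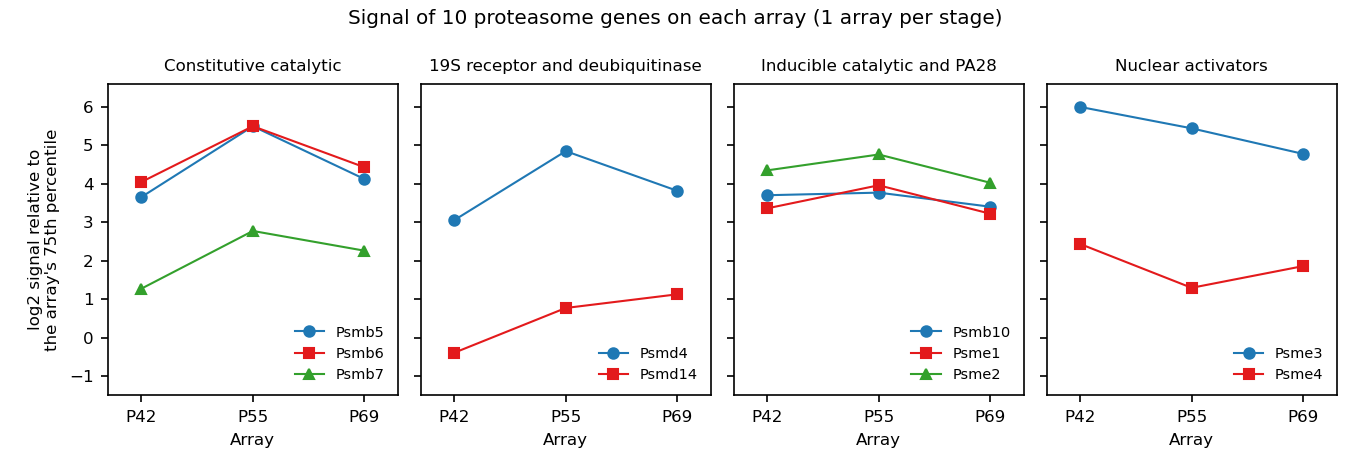
Log2 signal relative to the 75th percentile of the array (y axis) on the P42, P55, and P69 arrays (x axis, 1 point per array) for catalytic subunits, the ubiquitin receptor Psmd4, the deubiquitinase Psmd14, and the activators. Psmb5, Psmb6, and Psmb7 are lowest at P42 and highest at P55, Psmb10, Psme1, and Psme2 differ less from P42, and Psme3 and Psme4 are highest at P42.

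Among the ATPases of the 19S particle, all 6 were higher on both later arrays, with a median difference of 0.81 at P69 and 1.37 at P55. Psmc6 had the largest difference of all proteasome genes at P69, with a level of -2.25 at P42, -0.40 at P55, and 0.63 at P69 (7.38-fold and, at P55, 3.61-fold). It was well above background on all 3 arrays. Psmc2 was at 1.86, 3.61, and 3.34 and was 2-fold higher on both. By their reported probes, Psmc3 (3.40, 4.71, and 4.05), Psmc4 (1.42, 2.84, and 2.23), and Psmc5 (3.81, 4.84, and 4.48) were 2-fold higher only at P55. By the reported probes, Psmc3 had the smallest difference of the ATPases at P69 (0.65). Psmc1 had the smallest at P55 (0.70), with 2.04, 2.73, and 2.84 on the 3 arrays. This depends on the probe. The other probe of Psmc1 had differences of 1.56 at P69 and 1.26 at P55. That of Psmc3 had 1.01 and 1.07, respectively.

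The 11 non-ATPase subunits of the 19S particle were also higher on both later arrays, with a median difference of 1.01 at P69 and 1.01 at P55. Psmd4, which binds ubiquitin chains, had a level of 3.05 at P42, 4.85 at P55, and 3.82 at P69 (3.47-fold and 1.70-fold higher). Psmd14, the metalloprotease that cleaves the ubiquitin chain from the substrate, was at -0.39, 0.77, and 1.12 (2.24-fold and 2.86-fold). Psmd4 was thus highest at P55 and Psmd14 at P69. The largest differences were those of Psmd1, a scaffold of the base of the particle, at P69 (-0.40, 1.20, and 1.55; 3.86-fold) and of Psmd13 of the lid at P55 (-0.28, 1.81, and 1.07; 4.23-fold). Psmd3 was at 2.38, 4.16, and 3.43, and Psmd7, the inactive partner of Psmd14, at 2.21, 3.22, and 3.22. Psmd1, Psmd3, Psmd7, Psmd13, and Psmd14 were at least 2-fold higher on both arrays, and Psmd4 only at P55. Psmd2, the other scaffold of the base, was at 2.36, 3.38, and 2.98 and passed 2-fold only at P55. By its reported probe, Psmd12 was at 1.01, 1.72, and 2.08 and passed 2-fold only at P69. The other probe of Psmd12 had a difference of 0.25 at P69 and of -0.03 at P55. Psmd6 had the smallest difference at P55 (-0.28, 0.25, and 0.38). Psmd8 had the smallest at P69 (1.51, 2.28, and 1.70), and there its difference of 0.20 was within 2 SD of the spot error. Psmd11 had differences of 0.60 at P69 and 0.81 at P55.

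The chaperones of the 20S particle, Psmg1 to Psmg4, were each at least 2-fold higher at P55 (median difference 1.69), and Psmg2 also at P69, where Psmg1 was just under 2-fold. Psmg2 had the largest difference on both arrays, with -0.11 at P42, 1.73 at P55, and 1.56 at P69. Psmg3 had the smallest at P69, with -0.41, 1.30, and 0.02. Psmg1 was at -0.89, 0.63, and 0.11 and had the smallest at P55, and Psmg4 was at 0.18, 1.86, and 1.04. The chaperones that assemble the base of the 19S particle, Psmd5, Psmd9, and Psmd10, had lower median differences of 0.61 at P69 and 0.55 at P55. Psmd5 was at 1.77, 2.19, and 2.57, Psmd9 at -1.62, -0.48, and -1.01, and Psmd10 at 0.17, 0.72, and 0.65. By its reported probe, only Psmd9 reached 2-fold, at P55.

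The activators had the lowest differences of all roles. Their median difference was -0.45 at P69 and -0.07 at P55, compared to 0.81 and 1.24 for all 48. Psme1 and Psme2 form the interferon-induced PA28 ring, and their genes lie close together on chromosome 14 with 1 protein-coding gene between them. Psme1 had a level of 3.36 at P42, 3.96 at P55, and 3.22 at P69, and Psme2 of 4.35, 4.76, and 4.03. Relative to P42, both were slightly higher at P55 (0.60 and 0.41), but Psme2 was not with quantile normalization or normexp followed by it. Their differences at P69 (-0.14 and -0.32) were within 2 SD of the error of a single spot. Psme1 had 10 spots per array, and the smaller error of their mean was not computed. Psme3, which forms the nuclear PA28 gamma ring, was highest at P42 with 6.00, followed by 5.44 at P55 and 4.78 at P69 (2.33-fold lower than at P42). Psme4, the nuclear activator PA200, was also highest at P42 with 2.43, followed by 1.29 at P55 (2.20-fold lower) and 1.86 at P69. All 4 activators were below the median of all genes at P69 with each scaling tried, but without any scaling the difference of Psme3 at P69 was only -0.06. At P55, 2 of the 4 were below this median, and all 4 with quantile normalization, with or without normexp before it. Without a reference to all genes, 2 of the 4 were above 0 at P69 with scaling by the median and 3 without scaling.

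Psmf1 encodes PI31, a protein first described as an inhibitor of the 20S particle. It had a level of -1.65 at P42, 0.72 at P55, and 0.22 at P69 and was thus 5.17-fold and 3.65-fold higher on the later arrays. Of the genes that matched the rule by symbol only, Psmc3ip was at -2.49, -0.84, and -1.24 and was 2-fold higher on both later arrays, and Psme3ip1 was at 0.48 at P42 and 1.37 at P69 and passed 2-fold at P55 with a difference of 1.03.

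Between the later arrays, the median difference (P69 minus P55) of the proteasome genes was -0.40, where that of 14846 genes was -0.15. Of 47 genes with a value, 6 (12.8%) were at least 2-fold lower on the P69 array, compared to 11.3% of all genes, and 1 (2.13%) was higher, compared to 7.85%. The share of lower genes is thus near that of all genes. Psma8 (at least 5.87-fold), Psmb5 (2.59-fold), Psmg3 (2.42-fold), Psmb3 (2.16-fold), Psmb6 (2.09-fold), and Psmd4 (2.04-fold) were lower, and Psmc6 (2.04-fold) was higher. The direction of these differences is that of the sample labels and turns if the arrays are exchanged. Without any scaling the median difference was 0.50, with that of all genes at 0.72, and relative to all genes it was -0.038 with quantile normalization.

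The rings of the 20S particle had unequal medians in this comparison. All 8 beta subunits with a value were lower on the P69 than on the P55 array, with a median difference of -0.81, whereas 3 of 8 alpha subunits were higher and the median was -0.31. Relative to all genes, the beta ring was lower by 0.66, and by 0.23 with quantile normalization, and the alpha ring was 0.16 lower or, with quantile normalization, 0.06 higher. Of the 46 genes measured on all arrays, 30 were lowest at P42 and highest at P55, among them the 7 beta subunits Psmb1 to Psmb7. Another 11 were lowest at P42 and highest at P69, among them Psma3, Psma4, Psma7, Psmc1, Psmc6, Psmd1, and Psmd14. The order was not counted over all genes. On single comparisons, 8836 of 15843 genes were higher at P55 than at P42, and 8503 of 14846 were lower on the P69 than on the P55 array. However, 12 of 47 differences between the later arrays were within 2 SD of the spot error, including those of Psma1, Psma3, Psma4, Psma7, Psmc1, and Psmd7, and the order of P55 and P69 is not resolved for these genes.

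For 11 of the 48 genes the array has 2 probes. Both probes had the same direction against P42 in 10 of the 11 at P69 and in 8 at P55. Direction counts any difference from 0, and the other probe of Psmb5 had only 0.01 at P69. For Psmd9, the reported probe was higher on the later arrays (0.61 at P69 and 1.14 at P55), and the other probe was lower (-0.48 and -0.15). At P55, the second probes of Psmd12 (-0.03) and Psme2 (-0.04) had differences near 0 and of the opposite sign. The probes of Psmd10 differed most in size. The reported probe was 1.39-fold higher at P69 and 1.47-fold higher at P55. The other was not well above background at P42 and had a difference of at least 4.28 and 2.90, respectively, which is past 10-fold at P69. Between the later arrays, Psmd10 was also the only gene with probes of opposite sign (-0.07 and 1.38).

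Genes that work with the proteasome but fall outside the symbol rule were examined as a list of 22 partners, of which 20 were on the array and 19 had a value. Their median difference was 0.79 at P69 and 0.84 at P55, and 8 of 19 (42.1%) were at least 2-fold higher on each array and none lower. Of all genes, 22.2% were higher at P69 and 29.1% at P55, and 20.7% and 16.9% were lower. Among the other subunits and assembly factors, the ubiquitin receptor Adrm1 was at 1.64 at P42, 3.19 at P55, and 2.72 at P69. Sem1, a small subunit of the 19S lid, was at 3.56, 4.75, and 4.25, and Pomp, which matures the beta subunits, at 4.30, 5.63, and 4.61. The deubiquitinases of the particle were higher on both arrays, with Uchl5 at -3.49, -1.53, and -1.17 and Usp14 at -0.02, 0.77, and 1.28. Nfe2l1, which encodes the factor Nrf1 that activates proteasome genes when proteolysis is impaired, was at -0.99, -0.66, and -0.85, and Nfe2l2 (Nrf2) at 1.19, 1.56, and 1.73. The segregase Vcp was at 3.40, 3.99, and 3.73. Ecpas, which binds the 19S to the 20S particle, was lower at 0.57, 0.16, and 0.17.

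Upstream of the proteasome, 33 ubiquitin genes and E1 and E2 enzymes had a median difference of 0.45 at P69 and 0.96 at P55. At P69, 11 (33.3%) were at least 2-fold higher and 2 (6.06%) lower, compared to 22.2% and 20.7% of all genes. At P55, 15 (45.5%) were higher and 1 (3.03%) lower, compared to 29.1% and 16.9%. The polyubiquitin gene Ubb was at 7.28 at P42, 7.39 at P55, and 6.51 at P69, and was thus lowest at P69. The activating enzyme Uba1 was at 3.86, 5.33, and 4.35, in the same order as the beta ring, and the alternative activating enzyme Uba6 was at -1.21, -1.99, and -3.01. The largest difference on both arrays was that of the conjugating enzyme Ube2e2 (-0.95, 2.02, and 1.45).

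Other large complexes differed from P42 to a different extent. The 83 cytosolic ribosomal protein genes had a median difference of 0.03 at P69 and 0.96 at P55, and the 92 genes of the respiratory chain of 0.63 and 1.47. At P69, 7.32% of the ribosomal and 29.2% of the respiratory chain genes with a value were at least 2-fold higher than at P42, and at P55 47.6% and 82.0%. In comparison, the shares of the proteasome genes were 39.6% and 72.9%, and those of all genes 22.2% and 29.1%. All 3 families had a higher median at P55 than at P69. Cell cycle genes had a median difference of 1.22 and 1.66, keratinocyte markers of 3.09 and 3.29, and macrophage markers of -0.42 and -0.23. Whether the proteasome genes follow any of these lists was not tested.

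**Figure D4:**
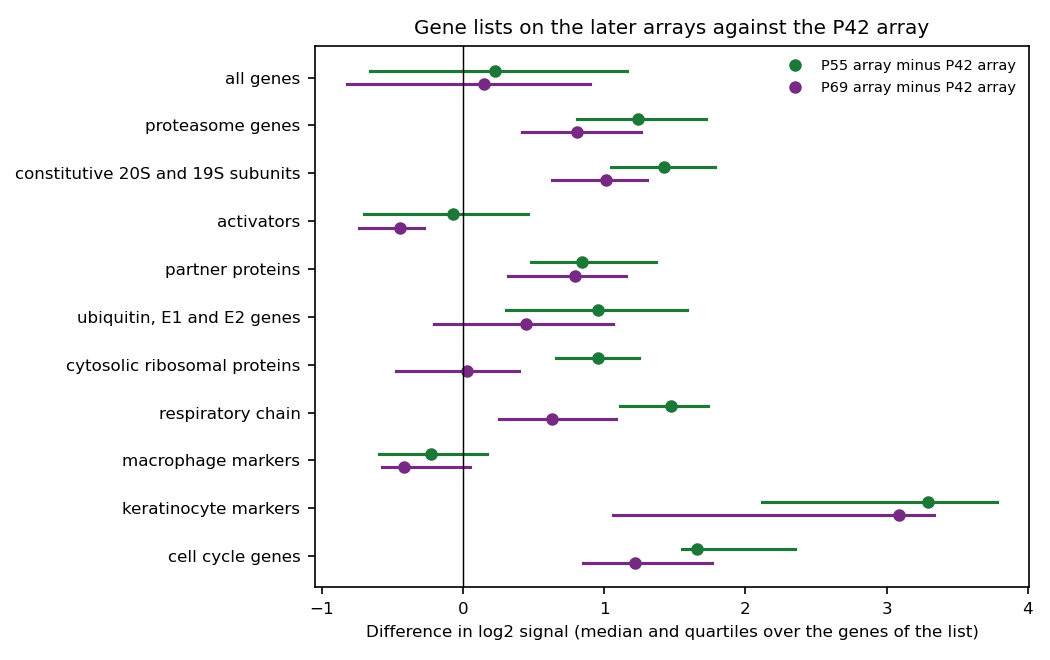
Median (point) and quartiles (line) over the genes of each list of the difference in log2 signal between each later array and the P42 array; the quartiles show the spread between genes, not an error. The proteasome genes (0.81 and 1.24) lie above the median of all genes on both arrays, the activators lie below it, and the ribosomal proteins lie near 0 at P69 only.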

How the data were processed

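The authors scanned the 1-color arrays and quantified them with Feature Extraction (version 10.7.3.1 per the file headers). The deposited intensity of a spot is linear and background-corrected, and arrays were not normalized to each other. A table of log2 values, also deposited by the authors, holds the reported probe of 39 of the 48 genes and was used only as an alternative. Here control spots and outlier spots (162 at P42, 274 at P55, and 281 at P69) were left out, and no spot was saturated. Spots of a probe were averaged, and the 75th percentile of each array was subtracted on the log2 scale. This percentile exceeded the faintest detected signal 21.7-fold at P42, 16.5-fold at P55, and 32.3-fold at P69. Detection of a probe required a positive well-above-background flag on a share of at least 0.5 of its spots. A gene detected on neither of the arrays compared has no difference. For a gene detected on only 1 of them, the bound was taken against the higher of the dim probe's own signal and the faintest detected signal of the dim array.

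Symbols came from the RefSeq transcript of a probe, which named 26056 of 55681 probes. A gene is reported by its probe with the highest mean log2 signal. The array was designed on another build than the gene table (GRCm38.p6), from which only names, neighbors, and promoters were taken. The spot error is the median SD (log2) over probes with at least 10 spots, which was 0.126 at P42, 0.108 at P55, and 0.119 at P69. The number of arrays limits the precision. Genes are given by their value on each array if they passed 2-fold in a comparison, belong to the catalytic subunits, activators, Psmd4, and Psmd14, or had the largest or smallest difference of their role. The members, lists, and alternatives were chosen with earlier results of these data known. Python 3.11.15 (numpy 2.4.6, pandas 2.3.3) and limma 3.58.1 in R 4.3.3 were used. The steps that give differences and bounds were tested on simulated arrays. Only a small part of the probes changed in these, so they could not test the choice of scaling.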

Additional observations from a re-analysis of the deposited data

How the results depend on the processing

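The alternatives were 4 other scalings, normexp background correction followed by quantile normalization (called normexp below, so that both choices differ at once), other filters and probe rules, outlier spots kept, the authors' table, exchange of the P55 and P69 arrays, and a threshold of 1.5-fold. The set without Psmc3ip, Psme3ip1, Psma8, and Psmb11 was added after seeing the data. Relative to all genes, the median difference of the proteasome genes was 0.66 at P69 and 1.01 at P55 and stayed above 0 in each alternative, from 0.48 to 1.01 and from 0.65 to 1.13 without the authors' table. The table holds only probes that differ by at least 1.00 (log2) among the arrays, so its genes are selected by the change itself and its values do not bear on stability. With quantile normalization the median was 0.48 at P69, 0.65 at P55, and -0.038 for P69 minus P55 (-0.25 as reported), and with normexp 0.70 at P55 and -0.052 for P69 minus P55. Without the filter on dim probes it was 0.88 at P69. The table gave 1.27 at P69 and 0.17 for P69 minus P55, and the exchanged arrays gave 1.01, 0.66, and 0.25, where the sign turns by construction. The scaling itself moved the median difference of all genes from P42. At P69 it moved by -0.20 with the percentile over probes detected on all arrays, 0.16 with quantile normalization, 0.50 with the median, and 1.17 without scaling. At P55 it moved by -0.39, 0.09, 0.63, and 0.30, respectively.

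Counts at 2-fold depended more on the scaling. At P69, 19 genes were higher than at P42, but 34 were with scaling by the median, 42 without scaling, 35 with the authors' table or exchanged arrays, and 33 at 1.5-fold. The count of 3 lower genes became 0 with quantile normalization, the median, no scaling, or normexp, and 1 with detection on both arrays, exchanged arrays, or without the 4 genes named above. At P55, 35 genes were higher, but 23 with the percentile over probes detected on all arrays, 22 with quantile normalization, 20 with normexp, and 19 with the authors' table or exchanged arrays. The 1 lower gene became 0 with the median or no scaling, 2 without the filter, and 3 with the authors' table or exchanged arrays. For P69 minus P55, the 1 higher gene became 0 with quantile normalization, the median, or normexp, 9 without scaling, and 6 with the authors' table or exchanged arrays, and the 6 lower genes became 3 with the percentile over probes detected on all arrays, 2 with quantile normalization or normexp, 1 without scaling, with the authors' table, or with exchanged arrays, and 18 at 1.5-fold. Apart from the exchange of arrays and of the table's columns, the cause of these shifts was not tested.

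Sign changes of single genes were computed for genes past 2-fold in the comparison, and those that changed did so with the authors' table or the exchanged arrays. Of the smaller differences from P42 among the 31 constitutive subunits and the activators, apart from the table and the exchanged arrays, that of Psmd8 at P69 changed sign with quantile normalization, normexp, and the percentile over probes detected on all arrays, those of Psme1 and Psme2 at P69 with the median or no scaling, and that of Psme4 at P69 without scaling. At P55 that of Psme2 did so with quantile normalization and normexp, and that of Psme3 with the median. For Psma8 the table gave 1.07 at P69, -1.48 at P55, and 2.56 for P69 minus P55, and the exchanged arrays 1.07, -1.48, and 2.55. For P69 minus P55 the table and the exchanged arrays each gave 1.11 for Psmb3, 1.07 for Psmb6, -1.03 for Psmc6, and 1.03 for Psmd4. They gave 1.38 and 1.37 for Psmb5 and 1.28 and 1.27 for Psmg3. Relative to all genes, the beta ring was at 0.57 and 0.66 and the 20S chaperones at 0.32 and 0.52, and the activators at 0.55 with exchanged arrays and 0.0021 with quantile normalization. No paired analysis was possible because each stage has 1 array.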
